A study of Mus musculus with 8 samples.

Results

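The genes described here are the 10 that encode collagen prolyl hydroxylases (P4ha1, P4ha2), lysyl hydroxylases (Plod1, Plod2, Plod3), lysyl oxidases (Lox, Loxl1, Loxl2, Loxl3) and the collagen chaperone (Serpinh1), taken by symbol from the 17441 genes of the authors' deposited table. All 10 were found in it. The cells were primary fibroblasts of mouse embryos at embryonic day 18, grown for 2 passages. Wild-type littermates were compared with embryos carrying a targeted deletion of Cbx2 (Cbx2-/-), a chromodomain subunit of polycomb repressive complex 1, which keeps developmental genes silent. RNA was sequenced from 2 libraries per genotype, with 200000 cells and about 4.62 Gb for each, and ATAC-seq was made from 2 libraries per genotype, which are not analysed here. Whether replicate libraries stem from different embryos is not stated in the labels, so the deposited p-values may measure technical spread only. The labels name no promoter or cell type that would limit the deletion.

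Collagen is made in the endoplasmic reticulum and finished outside the cell. Prolyl 4-hydroxylases modify prolines so that the triple helix is stable at body temperature, and lysyl hydroxylases modify lysines that later carry sugars and crosslinks. The chaperone HSP47, the product of Serpinh1, binds the folded procollagen until it leaves the endoplasmic reticulum. After secretion, lysyl oxidases convert lysines and hydroxylysines to aldehydes, from which the covalent crosslinks of collagen and elastin form. Fibroblasts are the main source of these proteins in connective tissue.

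The authors' deposited table gives 1 normalised value per genotype, so no value per library can be shown. Group values, fold changes and adjusted p-values of genes are quoted from the authors' deposited table, which holds the DESeq2 comparison of knockout with wild type. A gene was said to rise or fall where that adjusted p, over all genes, was under 0.05. Standard errors and 95% intervals were implied by the fold change and the deposited p. The values of all genes sum to 19428299 in wild type and 18910077 in knockout. Cbx2 itself was at 346.8 in wild-type and 29.0 in knockout cells in the authors' deposited table. Over all genes 4.3% fell and 3.48% rose, and among the abundant genes defined below 17.4% fell and 7.71% rose. Of 12 fibroblast markers all were present, the lowest at 620.4 in wild type, and 9 of them fell and 1 rose. Macrophage markers rose in 10 of 17 and fell in none, and their summed value went from 707.4 to 2029.5. Any part of these shifts in the results below was not tested, and in bulk RNA fewer cells of a type and less RNA per cell cannot be told apart.

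Collagen modifying enzymes changed modestly and not all in one direction. Loxl3, P4ha1, Plod1, Serpinh1 and P4ha2 fell, Plod2 rose, and Lox, Loxl1, Loxl2 and Plod3 did not pass the test. That is 5 lower and 1 higher of 10, where 4.3% of all 17441 genes were called lower and 3.48% higher. Abundant genes are called more often. Among the 1207 genes whose mean value was at or above that of Plod1, the lowest of the 10, 17.4% were called lower and 7.71% higher, 25.1% in all against 7.78% over all genes. The median log2 fold change of the 10 genes was -0.12, against -0.03 among those 1207 genes and 0.00358 among all genes. None of the 10 changed 2-fold.

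**Figure D1:**
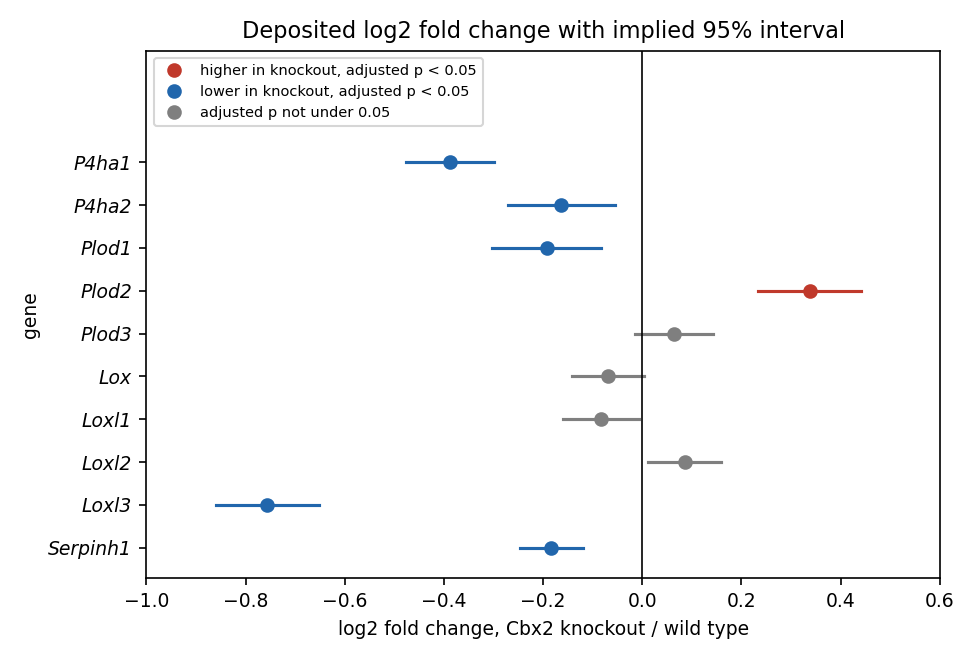
Deposited log2 fold change (knockout over wild type, horizontal axis) of each of the 10 genes, with a line for the 95% interval implied by the deposited p. Loxl3 lies farthest below 0 at -0.76 and Plod2 is the gene above 0 that passed the test, at 0.34, while Lox, Loxl1, Loxl2 and Plod3 lie within 0.09 of 0.

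**Figure D2:**
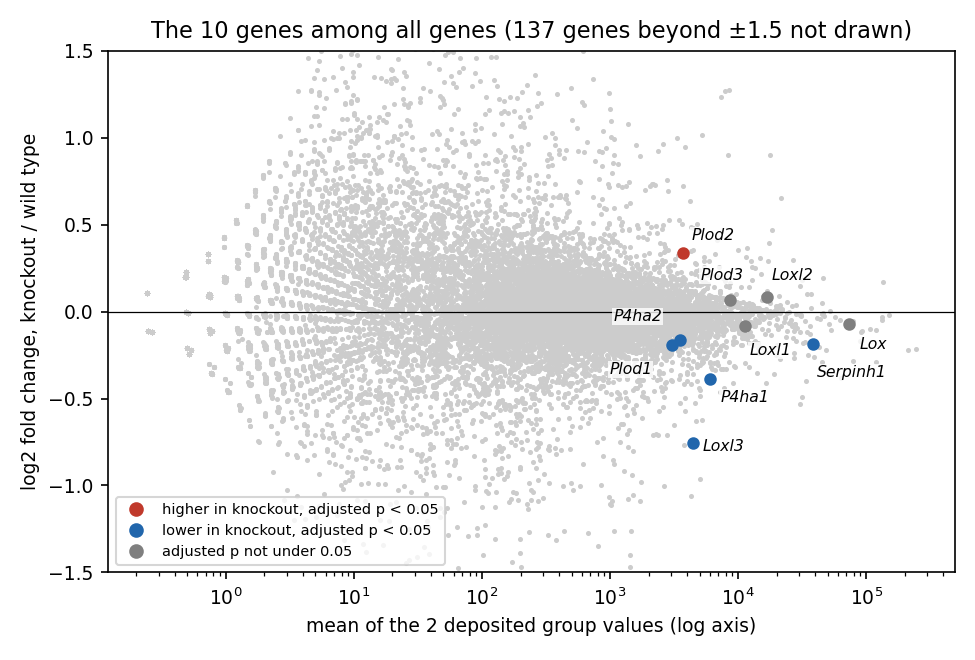
Log2 fold change (vertical axis) against the mean of the 2 deposited group values (horizontal log axis) for all genes in grey and the 10 genes in colour, without the 137 genes beyond 1.5 in either direction. The 10 genes sit at the abundant end, where most genes lie close to 0, and Loxl3 and P4ha1 lie at the lower edge and Plod2 at the upper edge of that range.

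Levels differed between the genes far more than between genotypes. Per kilobase of the deposited gene length, Serpinh1 had the highest normalised value (18231 in wild type and 16050 in knockout, from 40783 and 35903 before division by length in the authors' deposited table). Lox came next with 15405 and 14690.1 per kilobase, and among all genes its undivided mean value ranked 15th. Loxl1 (3489 and 3292 per kilobase) and Loxl2 (3150 and 3342) had close levels, and their order differed between the genotypes. Plod3 followed at 2557 and 2674 per kilobase. At the lower end were P4ha1 (1689 and 1291), P4ha2 (1635 and 1460.1), Loxl3 (1368 and 809), Plod1 (987 and 864) and Plod2 (885 and 1119), all per kilobase. Per kilobase, the order of P4ha1 and P4ha2, that of Plod1 and Plod2, and the place of Loxl3 above Plod1 and Plod2 all differed between genotypes. Most of these changes of order depend on the division by the deposited length. In undivided values P4ha1 was above P4ha2, Plod2 above Plod1, Loxl2 above Loxl1 and Loxl3 above Plod1 in both genotypes. Of these pairs only Loxl3 and Plod2 changed order in undivided values. With 1 value per genotype, whether neighbours in this order differ beyond the spread of libraries could not be tested.

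**Figure D3:**
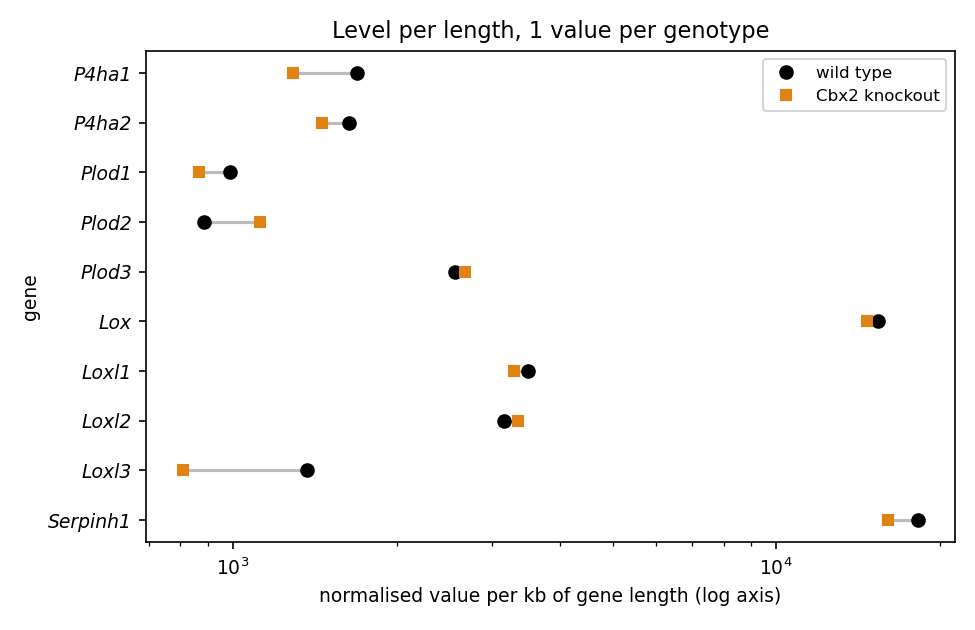
Normalised value per kilobase of gene length (horizontal log axis) for each of the 10 genes, with a black circle for wild type and an orange square for knockout, 1 value per genotype and no error. Serpinh1 and Lox stand above the rest at 14690.1 or more per kilobase in both genotypes, and Loxl3 shows the widest gap between genotypes, from 1368 to 809.

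Of the prolyl 4-hydroxylase genes, both members fell. P4ha1, the catalytic alpha subunit found in most cells (gene 18451, chromosome 10 from 59323197 to 59373304 in mm10), was at 6846 in wild-type and 5233 in knockout cells in the authors' deposited table, which is 23.6% lower. Its log2 fold change was -0.39 with an implied standard error of 0.045 (DESeq2 adjusted p 8.29e-16). Only 28 of the 1207 abundant genes, P4ha1 included, had a log2 fold change that low. P4ha2, the alternative alpha subunit (gene 18452, chromosome 11 from 54100924 to 54131668), was at 3725 in wild-type and 3328 in knockout cells in the authors' deposited table, 10.7% lower. Its log2 fold change was -0.16 with an implied standard error of 0.055 (DESeq2 adjusted p 0.0404). The fall of P4ha1 was larger than that of P4ha2 by 0.22 on the log2 scale, as their difference was -0.22 with a 95% interval from -0.36 to -0.086. Intervals of such differences treat the genes as independent, and the pairs were chosen after their values were seen. P4ha3, the third alpha subunit gene and outside the 10, was at 1342 in wild-type and 1026 in knockout cells in the authors' deposited table (log2 fold change -0.39, DESeq2 adjusted p 1.22e-04). Its difference from P4ha1 had an interval from -0.19 to 0.19. Summed per kilobase, the alpha subunit genes were 18.1% lower in knockout, and the share of P4ha1 in that sum went from 43.4% to 40.5% while that of P4ha2 went from 42.0% to 45.8%. P4hb, the beta subunit that is also protein disulfide isomerase, was at 29851 in wild-type and 27983 in knockout cells in the authors' deposited table and did not pass the test (log2 fold change -0.09, DESeq2 adjusted p 0.0706).

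The lysyl hydroxylase genes divided. Plod1, which modifies lysines of the triple helix (gene 18822, chromosome 4 from 147909753 to 147936776), was at 3226 in wild-type and 2822 in knockout cells in the authors' deposited table, 12.5% lower (log2 fold change -0.19, implied standard error 0.056, DESeq2 adjusted p 0.0104). Plod2, which modifies lysines of the telopeptides and so sets the kind of crosslink (gene 26432, chromosome 9 from 92539636 to 92608428), went the other way, with 3290 in wild-type and 4157 in knockout cells in the authors' deposited table. This was 26.4% higher, with a log2 fold change of 0.34 and an implied standard error of 0.053 (DESeq2 adjusted p 9.42e-09), and 26 of the 1207 abundant genes, Plod2 included, had one as high. Plod3, which also transfers glucose and galactose to hydroxylysine (gene 26433, chromosome 5 from 136987019 to 136996646), was at 8383 and 8765 in the authors' deposited table and did not pass the test. Its log2 fold change of 0.06 had a 95% interval from -0.015 to 0.14 (DESeq2 adjusted p 0.558).

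Plod2 and Plod1 differed in log2 fold change by 0.53 (95% interval 0.38 to 0.68), and Plod2 and Plod3 by 0.27 (0.14 to 0.40). Per kilobase, Plod1 made up 22.3% of the 3 lysyl hydroxylase genes in wild type and 18.5% in knockout, Plod2 20.0% and 24.0%, and Plod3 57.7% and 57.4%. Per kilobase Plod2 was the least abundant of the 3 in wild type and the second in knockout. In undivided values Plod1 was the lowest of the 3 in both genotypes. The long noncoding gene B430319G15Rik shares 3234 bases of the Plod2 locus and Znhit1 shares 941 of the Plod3 locus. Their values are small beside those of the hydroxylases, 20.5 and 33.9 for B430319G15Rik and 581.5 and 682.6 for Znhit1 in the authors' deposited table. Whether reads were counted by strand is not given in the sources used here.

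Serpinh1 (gene 12406, chromosome 7 from 99345375 to 99353239), the chaperone gene, fell slightly. Its value was 40783 in wild-type and 35903 in knockout cells in the authors' deposited table, 12.0% lower, with a log2 fold change of -0.18 and an implied standard error of 0.032 (DESeq2 adjusted p 6.38e-07). It is set beside the fibrillar chains Col1a1 (-0.22, no call, DESeq2 adjusted p 0.0653), Col1a2 (-0.29), Col3a1 (-0.38) and Col5a1 (-0.03, no call) by log2 fold change in the authors' deposited table, of which Col1a1, Col1a2 and Col5a1 were picked with their values known. The log2 fold change of Serpinh1 differed from that of Col1a1 by 0.033 (95% interval -0.13 to 0.20), from that of Col1a2 by 0.10 (0.013 to 0.19) and from that of Col3a1 by 0.20 (0.11 to 0.29). Serpinh1 is a known target of heat shock factor, and of 12 heat shock factor targets 1 rose and none fell (8.33% called), with a median log2 fold change of 0.0016. The heat shock factor target that rose was Hspb1, a small heat shock protein, with 4312 in wild-type and 5948 in knockout cells in the authors' deposited table (log2 fold change 0.46).

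Of the 4 lysyl oxidase genes in the set, Loxl3 passed the test. Loxl3, an oxidase with scavenger receptor domains (gene 16950, chromosome 6 from 83034205 to 83052566), was at 5537 in wild-type and 3278 in knockout cells in the authors' deposited table, 40.8% lower. Its log2 fold change was -0.76 with an implied standard error of 0.053 (DESeq2 adjusted p 1e-43). By p-value it ranked 36th of all 17441 genes, and 6 of the 1207 abundant genes, Loxl3 included, had a log2 fold change that low. Htra2, a mitochondrial protease gene that shares 1301 bases with the Loxl3 locus, was at 864.3 and 876.9 in the authors' deposited table (log2 fold change 0.02, DESeq2 adjusted p 0.982).

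The other three lysyl oxidases of the set did not pass the test. Lox, the founding member (gene 16948, chromosome 18 from 52516060 to 52529867), was at 74928 and 71453 in the authors' deposited table, with a log2 fold change of -0.07 (95% interval -0.14 to 0.0038, DESeq2 adjusted p 0.397). Loxl1, which acts on elastin (gene 16949, chromosome 9 from 58287723 to 58313212), was at 11645 and 10988 in the authors' deposited table, with a log2 fold change of -0.08 (-0.16 to -0.0070, DESeq2 adjusted p 0.255). Loxl2, which acts on basement membrane collagen (gene 94352, chromosome 14 from 69608692 to 69695834), was at 16334 and 17334 in the authors' deposited table, with a log2 fold change of 0.09 (0.012 to 0.16, DESeq2 adjusted p 0.197). The intervals of Loxl1 and Loxl2 leave out 0, as their unadjusted p-values were 0.0325 and 0.0228, and neither passed the adjustment over all genes.

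Loxl3 was lower than Loxl2 in log2 fold change, with a difference of -0.84 (95% interval -0.97 to -0.72), than Lox (-0.69, -0.81 to -0.56) and than Loxl1 (-0.67, -0.80 to -0.54). Lox and Loxl1 differed by 0.015 with an interval from -0.090 to 0.12. Loxl4, the fifth gene of the family and outside the 10, was at 1205 in wild-type and 932 in knockout cells in the authors' deposited table (log2 fold change -0.37, DESeq2 adjusted p 5.03e-04), and Loxl3 lay below it by a difference of -0.39 (-0.58 to -0.19). Per kilobase, Lox made up 65.2% of the family in wild type and 65.9% in knockout, while Loxl3 went from 5.79% to 3.63%. The summed level of the family per kilobase was 5.61% lower in knockout.

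Loxl3 and P4ha1 kept their fall in each setting tried except the 2-fold limit of the deposited up and down column, which no gene of the 10 reached. The calls of P4ha2 and Plod1 were lost when the columns were scaled to equal sums (adjusted p 0.200 and 0.0731), where Loxl2 passed as higher (0.0154), and with the implied standard error at 2 times its value the calls of Serpinh1 (0.209) and Plod2 (0.0830) were lost too.

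Promoter sequences are shown for the genes that fell together and have an entry in the RefSeq table of GRCm38.p6, the build also called mm10, which held 5 of the 10 genes (P4ha1, P4ha2, Plod1, Plod3 and Serpinh1). They allow the short core of the hypoxia response element to be seen, since P4ha1, P4ha2, Plod1 and Plod2 are known to respond to low oxygen. Each run is the sequence before the listed start, 5′ to 3′ along the gene, outside the annotated gene span. Capitals mark ACGTG or GCGTG on either strand, which on the opposite strand read as CACGT or CACGC. The windows are chr10:59323046-59323196 (plus strand), chr11:54100674-54100923 (plus), chr4:147936777-147937026 (minus) and chr7:99353240-99353489 (minus).
P4ha1: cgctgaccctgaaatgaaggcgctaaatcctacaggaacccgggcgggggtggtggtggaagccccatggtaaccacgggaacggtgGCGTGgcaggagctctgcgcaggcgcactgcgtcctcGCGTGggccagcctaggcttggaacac
P4ha2: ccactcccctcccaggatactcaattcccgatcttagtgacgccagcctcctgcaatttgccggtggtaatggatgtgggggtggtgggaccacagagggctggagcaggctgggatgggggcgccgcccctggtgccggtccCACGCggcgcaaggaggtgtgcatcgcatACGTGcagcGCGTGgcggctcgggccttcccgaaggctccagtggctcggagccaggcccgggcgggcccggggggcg
Plod1: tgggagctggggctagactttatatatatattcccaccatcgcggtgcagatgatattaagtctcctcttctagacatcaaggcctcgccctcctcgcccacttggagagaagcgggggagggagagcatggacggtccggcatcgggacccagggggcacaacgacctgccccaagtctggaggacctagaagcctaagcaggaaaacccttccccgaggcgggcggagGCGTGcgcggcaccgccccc
Serpinh1: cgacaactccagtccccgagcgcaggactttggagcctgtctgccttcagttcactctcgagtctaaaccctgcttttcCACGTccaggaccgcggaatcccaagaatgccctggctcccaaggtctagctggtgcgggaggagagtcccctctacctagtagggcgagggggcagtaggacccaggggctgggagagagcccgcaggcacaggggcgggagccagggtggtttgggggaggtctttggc

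Within the 250 bases before the start, P4ha1 held 3 such matches (2 of them in the 151 bases printed), P4ha2 3, Plod1 1 and Serpinh1 1. Plod3, which did not pass the test, held 4. Either motif was present in 38.6% of all 32851 promoter windows of that length, ACGTG in 16.6% and GCGTG in 28.2%. The windows of these genes are rich in G and C, from 55.6% in Plod3 to 70.0% in P4ha2, against a median of 52.4%. The heat shock motif GAANNTTC, found in 6.69% of all windows, was in none of the 5. These are matches of letters and not measured binding sites, and a link of them to the changes was not tested. Plod2 and the lysyl oxidase genes had no window.

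The counts of calls in the lists of related genes that follow are to be read beside 4.3% lower and 3.48% higher over all genes, 7.78% in all, and beside 17.4%, 7.71% and 25.1% among the 1207 abundant genes. Of 35 other genes of collagen maturation 10 fell and 1 rose, 31.4% of them called, with a median log2 fold change of -0.10 beside 0.00358 over all genes. Genes less abundant than those 1207 are among the 35, so the 25.1% of abundant genes is not a like share. Of the 15 that were as abundant themselves 6 fell and 1 rose, 46.7% called beside 25.1%, with a median of -0.09 beside -0.03. Colgalt1, which adds galactose to hydroxylysine, was the gene that rose, with 4314 in wild-type and 5075 in knockout cells in the authors' deposited table (log2 fold change 0.23, DESeq2 adjusted p 5.24e-05). With P4ha3 and Loxl4 it made up the 3 called among the 11 remaining enzymes and their partners. The prolyl 3-hydroxylase complex did not pass the test. P3h1, its enzyme, had a log2 fold change of -0.10, its partner Crtap of -0.08 and the cyclophilin gene Ppib of 0.12 in the authors' deposited table. The related genes P3h3 (-0.11) and P3h4 (0.06) did not pass either, and P3h2 (24.5 and 15.8) and Colgalt2 (1.32 and 1.22) had low values in the authors' deposited table.

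Among 16 genes of procollagen folding and export 5 fell and none rose, 31.2% called. They included Sec24d (-0.22) and Sec31a (-0.17), coat proteins of the vesicles that carry procollagen, Kdelr3 (-0.19), a receptor that returns proteins to the endoplasmic reticulum, and Fkbp10 (-0.13), a collagen prolyl isomerase, by log2 fold change in the authors' deposited table. Of 8 propeptide processing genes 3 fell and none rose, 37.5% called. Adamts2, which removes the amino-terminal propeptide, was at 2695 in wild-type and 1646 in knockout cells in the authors' deposited table (log2 fold change -0.71, DESeq2 adjusted p 5.79e-25). Bmp1 (-0.21), which removes the carboxy-terminal propeptide and activates lysyl oxidase, and its enhancer Pcolce (-0.15) fell by less in the authors' deposited table. With the implied standard error 1.5 times larger, 2 of the 35 genes were called in place of 11.

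Lysyl oxidase substrates and partners were mostly without a call, as 3 of 11 (27.3%) fell and none rose. Some of the 11 are less abundant than the 1207 abundant genes, so the share of those is not a like share. Postn, which brings Bmp1 to fibronectin, Lum, a small proteoglycan, and Sparc, a collagen-binding protein, were the genes that fell, and their log2 fold changes in the authors' deposited table were -2.23, -1.26 and -0.11. Of 43 collagen chain genes 6 rose and 10 fell (37.2% called), with a median log2 fold change of -0.0015. Of the 13 chains with a mean value at or above that of Plod1, 7 fell and 1 rose, with a median of -0.27. The summed value of all chains was 759023 in wild-type and 644799.9 in knockout cells in the authors' deposited table. The 4 with the smallest adjusted p were Col8a1 (0.72), Col6a3 (-0.53), Col3a1 (-0.38) and Col5a3 (0.70) by log2 fold change in the authors' deposited table.

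**Figure D4:**
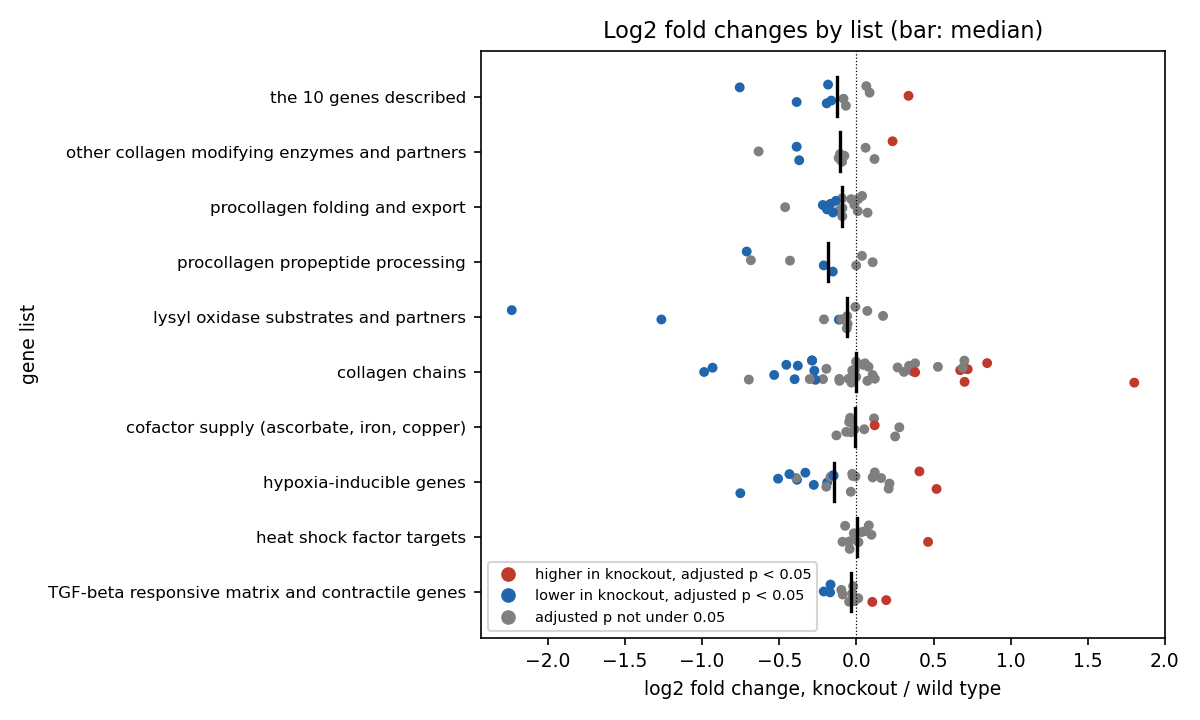
Log2 fold change (horizontal axis) of every gene in the 10 genes described and in each related list, with 1 point per gene, colour for the call and a black bar for the median. The medians of the maturation lists lie slightly below 0, and those of collagen chains, cofactor supply and heat shock factor targets at about 0, where the chains spread widely to both sides.

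Of 11 genes that move or store ascorbate, iron and copper, the cofactors of these enzymes, 1 rose and none fell, with a median log2 fold change of -0.01. That is 9.09% called, about the share over all genes. The gene that rose was Fth1, the ferritin heavy chain (0.12 in the authors' deposited table). Atp7a, the pump that loads copper onto lysyl oxidases (-0.13), and Slc23a2, an ascorbate carrier (0.11), did not pass the test in the authors' deposited table, and these genes are named outside the rule, after their values were seen.

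Hypoxia-inducible genes fell more often than they rose, with 9 lower and 2 higher of 23 (47.8% called) and a median log2 fold change of -0.15. The broader annotation term response to hypoxia in the authors' deposited table, looked at after the values were seen and holding Plod1, Plod2 and Loxl2, leaned the other way, with 19 higher and 14 lower of 150 genes and a median of 0.03. Tpi1 (-0.33), an enzyme of glycolysis, Bnip3 (-0.75), a mitophagy receptor, and the glucose carrier gene Slc2a1 (-0.39) fell in the authors' deposited table, beside Pgk1 (-0.19). Adm (0.41), the vasodilator adrenomedullin, and Ndrg1 (0.52) rose in the authors' deposited table and are named outside the rule. P4ha1, which fell, and Plod2, which rose, are both known to be induced by low oxygen. A part of low oxygen in these changes was not tested. Of 12 TGF-beta responsive genes 2 rose and 3 fell (41.7% called), with a median of -0.04, and Tpm1 (0.19), a tropomyosin, and Ltbp2 (-0.21), a latent TGF-beta binding protein, had the smallest adjusted p in the authors' deposited table. Cnn1, a calponin of contractile cells, was also lower there (log2 fold change -0.17 in the authors' deposited table).

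Markers of other cell types are given beside these results. In the authors' deposited table the macrophage genes Lyz2 (148 and 947) and Ctss (15.7 and 82.4) rose with the summed value above. Lyz2 was the largest part of that sum in knockout. Csf1r (244.6 and 257.0), the largest part in wild type, did not pass the test in the authors' deposited table. The sum of 12 endothelial markers was 1693 in wild type and 2004 in knockout (2 rose, 1 fell). That sum is mostly Eng (888.4 and 876.5) and Flt1 (539.8 and 369.5), while in the authors' deposited table Esam (35.6 and 290.2) and Cdh5 (61.6 and 323.8) rose. Of the 12, 7 had a log2 fold change below 0 and 5 above it. Pecam1 (2.02 and 1.98) was near 0 in both genotypes and Kdr (60.7 and 48.2) did not pass, in the authors' deposited table. The sum of 11 epithelial markers was 561.2 and 274.0 (2 fell), and that of 7 adipocyte markers 3273 and 1840 (2 fell). Of 7 skeletal muscle markers, with a sum of 1541 and 651.1, only Acta1 (1526 and 637.5 in the authors' deposited table) fell. Of 8 neural and glial markers (1199 and 1135) 1 fell, and of 11 cartilage and bone markers (47259.9 and 45754) 1 rose and 2 fell. The last sum is mostly Spp1 (44065 and 42700), which did not pass, while Sox9 (-0.80) fell and Comp (1.40) rose by log2 fold change in the authors' deposited table. No gene of any list was at 0, and the values of Cdh1 (1.86 and 2.08) and Epcam (1.99 and 1.97), which define epithelium, were near it in the authors' deposited table. The summed value of the 10 genes was 174697 in wild type and 163261 in knockout, and the part of other cell types in their changes was not tested.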

How the data were processed

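RNA libraries of primary mouse embryonic fibroblasts, 2 per genotype, were grouped by the genotype in their labels. The submitters' processing notes name mm10 with the authors' tools RSEM, HISAT2, Bowtie2 and DESeq2. Versions and filters are not stated. The authors deposited 2 expression columns of normalised signal, 1 for each genotype. The deposited log2 fold changes match the log2 ratio of these columns within 9.13e-09. The authors also deposited a p-value and an adjusted p, and the latter matches the Benjamini-Hochberg method over 17441 genes within 1.33e-06. The gene length is as deposited, in bases, and how it was defined is not stated. The authors' fold changes may be shrunken toward 0 in genes with few reads, which was not measured here, and the 10 genes had values of 2822 and above. As the fold changes match the 2 columns, such shrinkage would reach the low group values too. None of the 17441 genes was at 0 in either genotype, so values near 0 may not be measured levels.

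Standard errors were implied by treating the deposited p as a two-sided normal test of the fold change (Python 3.11.15, pandas 2.3.3, scipy 1.17.1). For the 10 genes they were 0.032 to 0.056, and 2.13 to 6.92 times the counting error of 2 libraries per genotype. With so few libraries, the authors' DESeq2 test shares information on spread across genes. The adjustment and the implied errors were tested on simulated data. Those data were drawn from the same normal model, so they cannot show that it holds for the deposited p.

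The genes and lists were chosen with earlier results of these data known. Named were Cbx2, the 10 genes, the remaining modifying enzymes, and up to 4 called genes of each pathway list (2 of each marker list) by adjusted p, or fewer. A gene that the rule takes is not reported here, and genes outside it (Eng, Flt1, Spp1, Cdh1, Epcam and those said to be) were picked with their values known. Of 206 list entries 199 were found, older symbols by RefSeq identifier. Counts per library had been allowed for in the design, but the table holds none, so the authors' test was used. The alternatives were other thresholds, scalings, pseudocounts of 1 and 10 and larger standard errors.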

Additional observations from a re-analysis of the deposited data

How the results depend on the processing

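No paired analysis was possible because the table holds 1 value per genotype, and for the same reason no library could be left out. Of 150 results recomputed over 10 alternatives 118 stayed on the same side of their threshold or within 1.5 times the count. Many of them could not have moved. A smaller threshold, the 2-fold limit and larger standard errors could not add a call, and a threshold of 0.1 could not remove one. The 118 is therefore no measure of robustness. No direction reversed, and none could have. Centring and scaling to equal sums shifted every log2 fold change by -0.0036 and 0.039, less than the 0.064 of Plod3, the nearest to 0. The pseudocounts kept the deposited p, so they could not change a call. At an adjusted p of 0.01, P4ha2 (-0.16) and Plod1 (-0.19) lost their call and 3 genes were lower. With a 2-fold change also required, 0 of the 10 genes were higher and 0 lower, as P4ha1 (-0.39), P4ha2 (-0.16), Plod1 (-0.19), Plod2 (0.34), Loxl3 (-0.76) and Serpinh1 (-0.18) fell short, and 0 other maturation genes, 1 collagen chain and 294 of all genes were called. With columns scaled to equal sums, which adds 0.039 to every log2 fold change, P4ha2 (-0.12) and Plod1 (-0.15) lost their call and Loxl2 (0.12) gained one, giving 2 higher and 3 lower. With the implied standard error times 1.5, P4ha2 (-0.16) and Plod1 (-0.19) lost it, leaving 3 lower, with 2 other maturation genes and 530 of all genes called. At 2 times, P4ha2 (-0.16), Plod1 (-0.19), Plod2 (0.34) and Serpinh1 (-0.18) lost it, leaving 0 higher and 2 lower, with 1 other maturation gene and 261 of all genes. In these settings only the threshold, the scaling or the error was changed. Thresholds of 0.1, adjustment over the genes at or above the median value, centring on the median and the pseudocounts left the calls of the 10 genes as they were.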

Other observations

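The functional annotation in the authors' deposited table, looked at after the values were seen, places 5 of the 10 genes (P4ha1, Plod3, Lox, Loxl2 and Serpinh1) under collagen fibril organization. That term held 37 genes, of which 3 rose and 11 fell, with a median log2 fold change of -0.07. Loxl2 and Loxl3 share the term epithelial to mesenchymal transition, in which 3 of 19 genes fell and none rose. Lox and Loxl3 share lung development, in which 14 of 74 fell and 4 rose. Lox and Loxl1 share aorta development, in which 3 of 22 fell and none rose. Response to hypoxia, shared by Plod1, Plod2 and Loxl2, had 19 of 150 genes higher and 14 lower, with a median of 0.03, and hydroxylysine biosynthetic process, shared by Plod1, Plod2 and Plod3, had 1 of 4 higher and 1 lower, with a median of 0.20. These counts include the genes themselves and stand beside 4.3% of all genes lower and 3.48% higher.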
